A study of Mus musculus with 6 samples.

Results

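The let-7 and miR-98 family was examined in the miRNA profiles of the mouse prefrontal cortex. Its members were taken by name: mmu-let-7a-5p, mmu-let-7b-5p, mmu-let-7c-5p, mmu-let-7d-5p, mmu-let-7e-5p, mmu-let-7f-5p, mmu-let-7g-5p, mmu-let-7i-5p and mmu-miR-98-5p (mmu stands for the mouse and is left out below where the name is clear), which are 9 of the 1189 miRNA entries listed for every library. Small RNA of 3 PND and 3 CON animals was sequenced, 1 library for each. All 6 animals were wild type male C57BL/6 mice given as 18 months old, although the sample titles carry the number 17. The PND group (postoperative neurocognitive disorder) inhaled 1.5% isoflurane for 30 min and then had an exploratory laparotomy of 30 min under the same anesthetic, with lidocaine cream and povidone iodine on the wound afterwards, while the CON group received neither anesthesia nor surgery. The CON group therefore does not separate the anesthetic from the operation or the wound care, and every mouse was put under isoflurane and perfused with saline when the tissue was taken after the behavioral tests.

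miRNAs are short RNAs that guide Argonaute proteins to mRNAs, mainly through the seed, the bases near the 5′ end, and lower the output of those mRNAs. The let-7 miRNAs are a large family of animals with a shared seed, are low in stem cells and high in differentiated tissue, and are abundant in the adult brain. The proteins LIN28A and LIN28B block the maturation of many let-7 precursors, and known targets of the family include Lin28a and Lin28b themselves, Hmga2 and Ras genes.

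The mature sequences of the 9 members, as listed in RefSeq for the mouse assembly GRCm38, are shown because the members differ at few bases and a read of one can resemble another. The seed, bases 2 to 8 counted from 1 at the 5′ end, is in capitals.
let-7a-5p: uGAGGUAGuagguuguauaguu
let-7b-5p: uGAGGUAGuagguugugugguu
let-7c-5p: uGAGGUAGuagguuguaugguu
let-7d-5p: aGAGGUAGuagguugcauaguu
let-7e-5p: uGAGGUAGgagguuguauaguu
let-7f-5p: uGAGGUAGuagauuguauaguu
let-7g-5p: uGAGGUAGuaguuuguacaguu
let-7i-5p: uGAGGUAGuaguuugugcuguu
miR-98-5p: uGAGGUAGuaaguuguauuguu

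All 9 sequences were 22 bases long and shared the seed GAGGUAG, so the family is a single seed group. They agreed at 14 of the 22 positions and differed at the other 8. Of the 36 pairs of members, 4 differed at 1 base, which were let-7a-5p and let-7c-5p (A19G), let-7a-5p and let-7e-5p (U9G), let-7a-5p and let-7f-5p (G12A), and let-7b-5p and let-7c-5p (G17A). The most distant pair, let-7d-5p and let-7i-5p, differed at 6 bases. let-7d-5p differed from let-7a-5p at the first base (U1A). Values of members that differ at 1 base are uncertain to the extent that reads with a sequencing error were assigned between them, since the number of mismatches allowed was not given in the sources used here.

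Of the 1679 mature mouse miRNAs in the RefSeq table, 11 carried this seed, and the 2 that were not members, let-7k and miR-1961, were also listed in the files. A further entry with a let-7 name, let-7j, carried another base at the end of the seed. They are shown to make clear why they were kept apart from the members.
let-7k: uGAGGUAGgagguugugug
miR-1961: uGAGGUAGuaguuagaa
let-7j: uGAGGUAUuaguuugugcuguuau

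let-7j was measured at 210, 252 and 253 CPM (counts per 1000000 miRNA reads) in PND replicates 1, 2 and 3 and at 223, 191 and 254 CPM in CON replicates 1, 2 and 3. let-7k lay between 7.95 and 10.8 CPM, and miR-1961 between 0.0654 and 0.678 CPM, or 1 to 12 reads. All 3 entries were thus far below the members in total. let-7j has the sequence of let-7i-5p with another base at the end of the seed and extra bases at the 3′ end. Its values are therefore uncertain in the same way as those of members that differ at 1 base.

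The 9 members come from 12 hairpins on 7 chromosomes, since let-7a, let-7c and let-7f each have 2 gene copies. All positions are those of GRCm38, and the host genes are those of the GENCODE M21 annotation. The hairpins of let-7a-1, let-7f-1 and let-7d lie within 2261 bases at chr13:48536012-48538272, in an exon of the long noncoding RNA 6720427I07Rik. Those of let-7c-2 and let-7b lie within 801 bases at chr15:85706603-85707403, in an exon of the noncoding transcript Lncppara. The let-7f-2 and miR-98 hairpins lie at chrX:151912346-151913321 in an intron of Huwe1, which encodes a ubiquitin ligase, and let-7g at chr9:106178840-106178927 in an intron of Wdr82. let-7i is placed at chr10:122985640-122985724 in an exon of the transcribed pseudogene D630033A02Rik. let-7e, let-7a-2 and let-7c-1 sit beside miRNAs of the miR-99 and miR-125 families, within 692 bases at chr17:17830188-17830879 for miR-99b, let-7e and miR-125a, within 5387 bases at chr9:41531425-41536811 for miR-100 and let-7a-2, and within 815 bases at chr16:77598936-77599750 for miR-99a and let-7c-1. Members with 2 gene copies have 1 value each, so the copies cannot be told apart from the 5p arm.

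The libraries held 14849461 to 19471226 miRNA reads, so that 1 read was worth 0.0514 to 0.0673 CPM, and the least abundant member, miR-98-5p, still had 12844 to 17264 reads. Counting error was thus small beside the differences between mice. The neuronal miRNA list (5 miRNAs with miR-128-3p among them, all present in every library) summed to 281630 to 373570 CPM. The sum was highest in CON replicate 2 and lowest in PND replicate 3, as was miR-128-3p, which made up most of it. Without miR-128-3p, the rest of the list was lowest in CON replicate 2 and highest in PND replicate 3. miR-128-3p alone, a neuronal miRNA, took 23.2%, 19.0% and 17.6% of the reads in the PND group and 22.7%, 29.2% and 21.6% in the CON group. The epithelial list (10 miRNAs) summed to 1751 CPM in CON replicate 1 against 165 to 321 CPM in the other libraries. In bulk tissue, fewer cells of a type and less RNA per cell cannot be told apart.

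Together the members made up 21.3%, 21.7% and 20.2% of all miRNA reads in PND replicates 1, 2 and 3 and 19.8%, 21.1% and 20.8% in CON replicates 1, 2 and 3. The groups overlapped, with the lowest share in CON replicate 1 and the highest in PND replicate 2. The PND group averaged 21.1% ± 0.736 (SD, n = 3), against 20.6% ± 0.652 (SD, n = 3) for the CON animals (exact two-sided permutation test, p = 0.40, where 3 against 3 cannot give less than 0.1). The log2 ratio of the means was 0.03, smaller than the spread between mice.

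The total against which these shares were taken contains miR-128-3p, which varied more than the family did. With miR-128-3p left out of the total, the family held 27.7%, 26.8% and 24.6% of the remaining reads in the PND group and 25.7%, 29.8% and 26.6% in the CON group. Its highest share was then in CON replicate 2, and the mean was lower in the PND group than in the CON group, with a log2 ratio of -0.05 (exact permutation test, p = 0.70). The direction of the family's small difference therefore depended on the scaling.

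**Figure D1:**
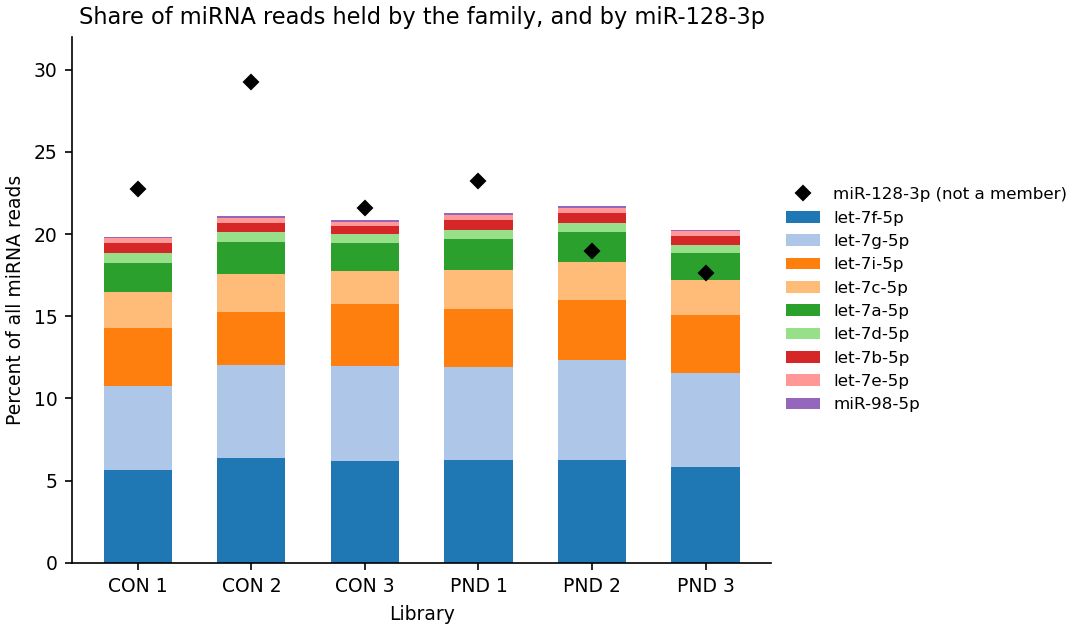
Stacked bars give the percent of all miRNA reads held by each of the 9 members in each library, and black diamonds give the percent held by miR-128-3p. The bars reach 19.8% to 21.7%, while miR-128-3p ranges from 17.6% to 29.2%.

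mmu-let-7f-5p was the most abundant member, with 62754, 62333 and 58417 CPM in PND replicates 1, 2 and 3 and 56476, 63717 and 62022 CPM in CON replicates 1, 2 and 3. mmu-let-7g-5p followed with 56190, 61039 and 57269 CPM in the PND group and 51216, 56397 and 57744 CPM in the CON group. let-7f-5p was above let-7g-5p in 6 of 6 libraries, but the ranges of these neighbors overlapped over the libraries and their means differed by a factor of 1.08. Among all 1189 entries, let-7f-5p ranked at place 3 to 4 and let-7g-5p at place 4 to 5.

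mmu-let-7i-5p was the next member, with 35295, 36652 and 35218 CPM in the PND group and 35061, 32615 and 37833 CPM in the CON group. mmu-let-7c-5p had 23648, 22884 and 21270 CPM in the PND group and 22168, 22684 and 19730 CPM in the CON group. mmu-let-7a-5p, the namesake sequence of the family, had 19000, 18219 and 16423 CPM in the PND group and 17395, 19525 and 17370 CPM in the CON group. The ranges of these members overlapped neither with each other nor with let-7g-5p, and the order was the same in every library.

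let-7d-5p and let-7b-5p lay well below, by a factor of 3.20 between the means of let-7a-5p and let-7d-5p. mmu-let-7d-5p had 5841, 5861 and 4928 CPM in the PND group and 5851, 6100 and 5198 CPM in the CON group. mmu-let-7b-5p had 5733, 5736 and 5146 CPM in the PND group and 6091, 5567 and 4771 CPM in the CON group. These neighbors did not differ beyond their spread, since let-7d-5p was the higher in 4 of 6 libraries and the ratio of the means was 1.02.

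mmu-let-7e-5p had 3253, 3157 and 3022 CPM in the PND group and 3256, 3326 and 2890 CPM in the CON group. mmu-miR-98-5p was the lowest member in every library, with 887, 926 and 793 CPM in the PND group and 967, 865 and 819 CPM in the CON group, at place 74 to 86 among all entries. The level thus fell by a factor of 3.60 from the mean of let-7e-5p to that of miR-98-5p. Since all members have the same length, CPM compares them without a length correction, but the ligation steps of small RNA libraries favor some sequences over others, and their part in the order was not tested.

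**Figure D2:**
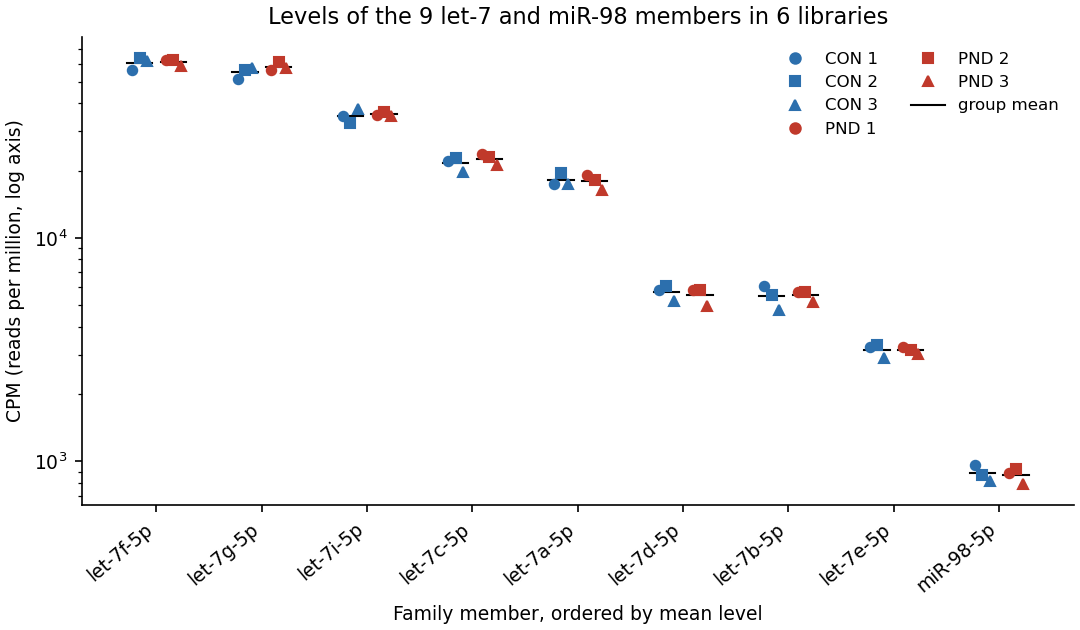
Points give the CPM of each member in each library on a log axis, with CON in blue, PND in red and lines at the group means. The members span from 793 CPM for miR-98-5p in PND replicate 3 to 63717 CPM for let-7f-5p in CON replicate 2, and for each member the points of the groups overlap.

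Each member was steady between mice. The highest library exceeded the lowest by a factor of 1.13 for let-7f-5p, 1.15 for let-7e-5p, 1.16 for let-7i-5p and at most 1.28, for let-7b-5p. On the log2(CPM + 1) scale, the SD within groups was 0.08 to 0.14 for the members, with a median of 0.09, beside a median of 0.19 over the 361 entries with a mean of at least 10 CPM. Most of these entries were less abundant than every member. The spread was not compared with that of entries of similar level, so steadiness particular to the family is not shown. No library was high or low in every member: CON replicate 2 held the highest value of 4 members, while PND replicate 3 and CON replicate 3 each held the lowest value of 3 members and CON replicate 1 that of 2, let-7f-5p and let-7g-5p.

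The comparison of the PND group with the CON group asks whether anesthesia and surgery went with a change in these miRNAs. No member passed the test: 0 of 9 had an unadjusted p under 0.05 in limma, and 0 of 9 an adjusted p under 0.05, where 5.13% of all 1189 entries had an unadjusted p under 0.05 and 0.421% an adjusted p under 0.05. The log2 fold changes, PND minus CON, lay between -0.05 for let-7d-5p and 0.08 for let-7g-5p, with a median of 0.01 beside a median of 0.05 over all entries and of 0.14 over the entries with a mean of at least 10 CPM. Their standard errors were 0.08 to 0.11, larger than the difference itself for each of the 9 members.

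For let-7g-5p the log2 fold change was 0.08 with a 95% interval of -0.11 to 0.27 (limma, adjusted p = 0.77). For let-7c-5p it was 0.07 with an interval of -0.14 to 0.28 (limma, adjusted p = 0.80). let-7f-5p, let-7i-5p and let-7b-5p were at 0.01, 0.02 and 0.02. let-7a-5p, miR-98-5p and let-7d-5p were at -0.02, -0.02 and -0.05, and let-7e-5p at -0.0040. The 9 intervals together reached from -0.30 to 0.28, so these libraries leave room for changes of that size in single members, and the adjusted p-values of limma ran from 0.77 to 0.98.

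The sign of these values carried little information, since 5 members were above 0 and 4 below with the deposited scaling, but 9 of 9 were below 0 after scaling by TMM factors (trimmed mean of M values). The median over the entries with a mean of at least 10 CPM moved from 0.14 to 0.02 at the same time, and the members moved with it, to values between -0.17 and -0.04. CON replicate 2, which had the highest share of miR-128-3p, had the lowest TMM factor, 0.860 against 0.992 to 1.07 in the other libraries. Its part in the direction was not tested separately, and 0 of 9 members had an unadjusted p under 0.05 under TMM as well, beside 4.37% of all entries. No member's CPM separated the groups, where 7.91% of all entries lay higher in every PND library than in every CON library and 2.02% lay lower.

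**Figure D3:**
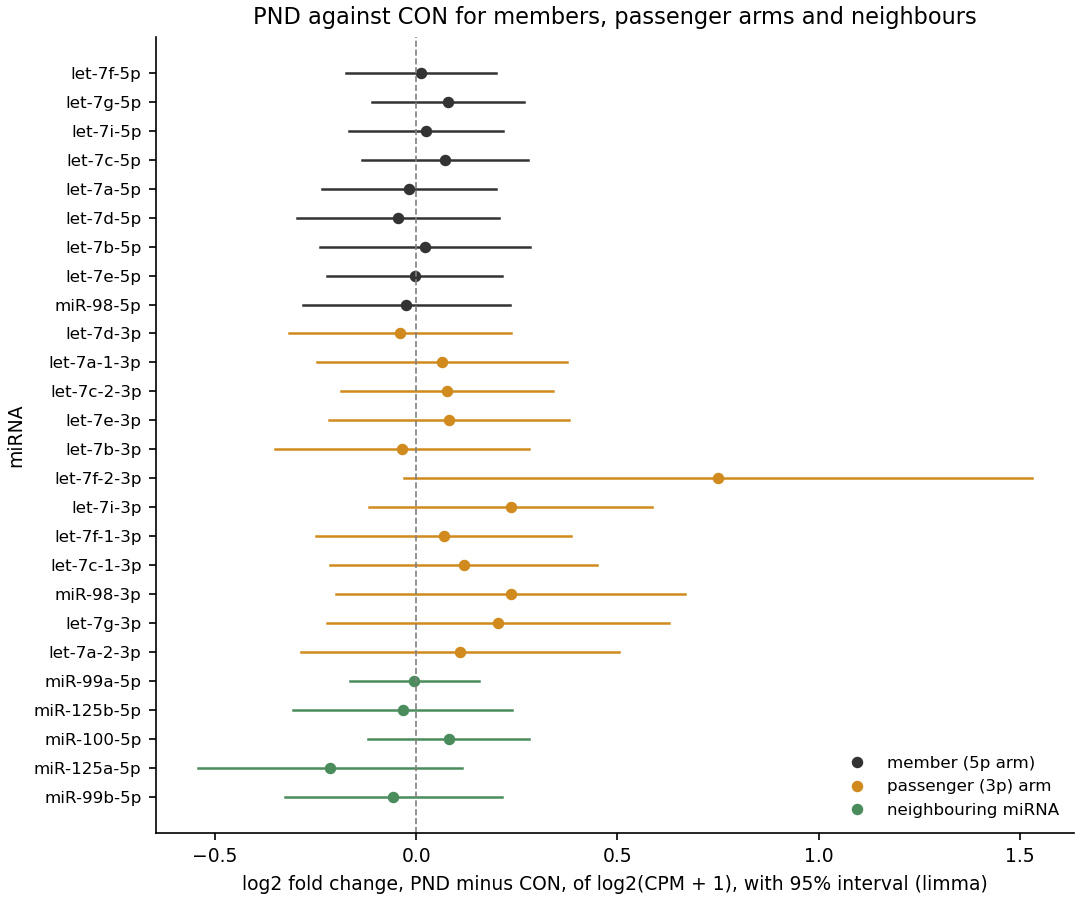
Points give the log2 fold change, PND minus CON, on the log2(CPM + 1) scale with the deposited scaling, and lines the 95% interval of limma, for the 9 members, the 12 passenger arms and the 5 neighboring miRNAs. All 26 intervals include 0, and let-7f-2-3p stands farthest from it, at 0.75; signs of the members turn with the scaling.

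Within the family, the share of each member is free of the scaling of the library. let-7f-5p held 29.5%, 28.8% and 28.8% of the family's reads in the PND group and 28.5%, 30.2% and 29.8% in the CON group. let-7g-5p held 26.4%, 28.2% and 28.3% in the PND group and 25.8%, 26.8% and 27.7% in the CON group. Its mean difference, 0.866 percentage points, was the largest of the 9, yet the groups overlapped (exact permutation test, p = 0.30). let-7i-5p held 16.6%, 16.9% and 17.4% in the PND group and 17.7%, 15.5% and 18.2% in the CON group, the widest spread among the 3 most abundant members and found in the control mice.

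The shares of the other members overlapped between the groups as well, so that 0 of 9 separated the PND group from the CON group. The smallest of the 9 unadjusted p-values of the exact permutation test was the 0.30 of let-7g-5p. let-7b-5p ranged most in relative terms, from 2.29% of the family in CON replicate 3 to 3.07% in CON replicate 1, with 2.54% to 2.70% in the PND group. CON replicate 1 also had the highest share of miR-98-5p, 0.487% against 0.391% to 0.427% in the other libraries. It was the library with the high epithelial list, whose part in this value was not tested.

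**Figure D4:**
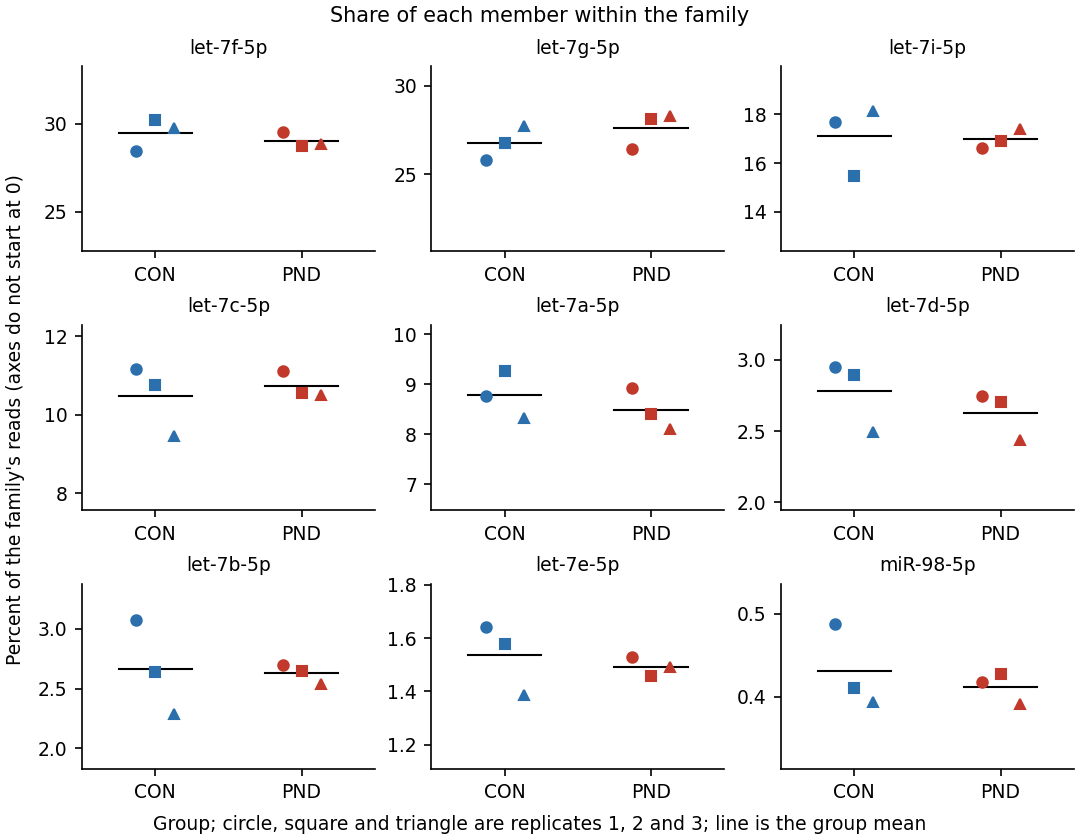
Each panel gives the percent of the family's reads held by 1 member in the 3 CON and the 3 PND libraries, with lines at the group means and axes that do not start at 0. The groups overlap in all 9 panels, and the CON points are the more widely spread for let-7b-5p, with 2.29% to 3.07% against 2.54% to 2.70%.

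Each let-7 hairpin also gives a passenger arm, here the 3p arm, which is mostly degraded while the 5p arm, the guide, is kept. The 12 passenger arms were far less abundant than the guides, from 461 CPM on average for let-7d-3p and 309 CPM for let-7a-1-3p down to 1.43 CPM for let-7a-2-3p and 1.82 CPM for let-7g-3p. Of the 12 passenger arms, 0 had an unadjusted p under 0.05 in limma, beside 5.13% of all entries. Among these arms, 1 (let-7i-3p) lay higher in every PND library than in every CON library, beside 7.91% of all entries. Their log2 fold changes ran from -0.04 to 0.75 with a median of 0.10, beside 0.05 over all entries, and the median turned to -0.016 with TMM factors and -0.044 with DESeq2 size factors. Some of these arms matter for reading the values, and the sequences are shown because of a repeat among them.
let-7a-1-3p: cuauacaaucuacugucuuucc
let-7c-2-3p: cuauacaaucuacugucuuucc
let-7f-2-3p: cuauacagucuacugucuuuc
let-7i-3p: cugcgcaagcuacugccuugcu

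let-7a-1-3p and let-7c-2-3p are the same 22 bases, yet they were listed with different values. let-7a-1-3p had 287, 319 and 340 CPM in the PND group and 264, 298 and 346 CPM in the CON group. let-7c-2-3p had 70.9, 79.7 and 73.2 CPM in the PND group and 70.8, 69.5 and 71.4 CPM in the CON group. Their ratio was 3.73 to 4.85 over the libraries. Reads that cover only these bases cannot be told apart, so the division between both entries is uncertain, and how reads with several matches were counted was not given in the sources used here.

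let-7f-2-3p was the arm with the largest difference, with 19.8, 28.6 and 42.7 CPM in PND replicates 1, 2 and 3 and 19.5, 10.8 and 22.4 CPM in CON replicates 1, 2 and 3. The groups overlapped, as PND replicate 1 lay below CON replicate 3, while PND replicate 3 was the highest and CON replicate 2 the lowest library. The log2 fold change was 0.75 ± 0.34 (SE), with a 95% interval of -0.03 to 1.53, and did not pass the test (limma, unadjusted p = 0.057, adjusted p = 0.77). The unadjusted p was 0.050 with TMM factors, 0.031 in edgeR and 0.014 in DESeq2 on the recovered reads, and the adjusted p was 0.82, 0.82 and 0.98. Without CON replicate 2 the log2 fold change was 0.45 and without PND replicate 1 it was 1.01. miR-128-3p was highest in CON replicate 2 and lowest in PND replicate 3, the libraries at either end for let-7f-2-3p. The rest of the neuronal list was lowest and highest in these libraries instead. The part of neuronal content in the difference was not tested. The other arm of the same hairpin, let-7f-5p, and miR-98-5p, which lies in the same intron of Huwe1, did not pass the test. Over its 21 bases, let-7f-2-3p differs at 1 base from let-7a-1-3p and let-7c-2-3p. These averaged 309 and 72.6 CPM, against 24.0 CPM for let-7f-2-3p. The values of let-7f-2-3p are therefore uncertain in the same way as those of members that differ at 1 base.

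let-7i-3p had 24.1, 25.2 and 26.0 CPM in the PND group and 22.1, 17.8 and 24.0 CPM in the CON group. The groups did not overlap, but the lowest PND value and the highest CON value were next to each other at 24.1 and 24.0 CPM. The log2 fold change was 0.23 ± 0.15 (SE) (limma, adjusted p = 0.77), and it was 0.12 with TMM factors and 0.09 with DESeq2 size factors.

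The ratio of guide to passenger reads compares both arms within a library and is free of its scaling. All 9 members could be tested, with the arms of both gene copies summed for let-7a, let-7c and let-7f and at least 24 passenger reads in every library. The ratio ran from 11.3 to 13.2 guide reads per passenger read for let-7d, the member with the most balanced arms, to 24984 to 39074 for let-7g, where the passenger arm had only 24 to 43 reads. The order of the family by this ratio differed from the order by level. let-7f-5p, the most abundant member, had 933 to 2226 guide reads per passenger read, below let-7g in every library. let-7a-5p had 48.0 to 65.9. The let-7a and let-7c ratios rest on the uncertain division of reads between their passenger arms of the same sequence. Their values, their places in the order and their overlap between the groups are therefore uncertain.

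For let-7i the ratio was 1465, 1453 and 1356 in PND replicates 1, 2 and 3 and 1585, 1828 and 1577 in CON replicates 1, 2 and 3. Every PND library was below every CON library, with a difference of -0.22 on the log2 scale (exact permutation test, p = 0.10, the smallest this design can give, for 1 of 9 ratios tested). For comparison, 144 hairpins were taken whose 5p and 3p entries carry the same name, with at least 10 reads of each in every library. Their 5p to 3p ratio was lower in every PND library than in every CON library in 4.17%, and higher in 4.17%. Members with copy numbers in the names of their 3p arms, let-7a, let-7c and let-7f, are not among these hairpins. Apart from let-7i, the other 8 members overlapped between the groups. For let-7f, the ratio was 1629, 1268 and 933 in the PND group and 1403, 2226 and 1543 in the CON group, a log2 difference of -0.44 (exact permutation test, p = 0.30). Without PND replicate 1, the ratios of 4 members did not overlap, those of let-7f, let-7g, let-7i and miR-98, all lower in the PND group, where 13.2% of the 144 hairpins were lower and 19.4% higher. Without CON replicate 1, 3 members did not overlap, let-7e and let-7i lower and let-7b higher in the PND group, beside 13.9% of the hairpins lower and 15.3% higher.

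**Figure D5:**
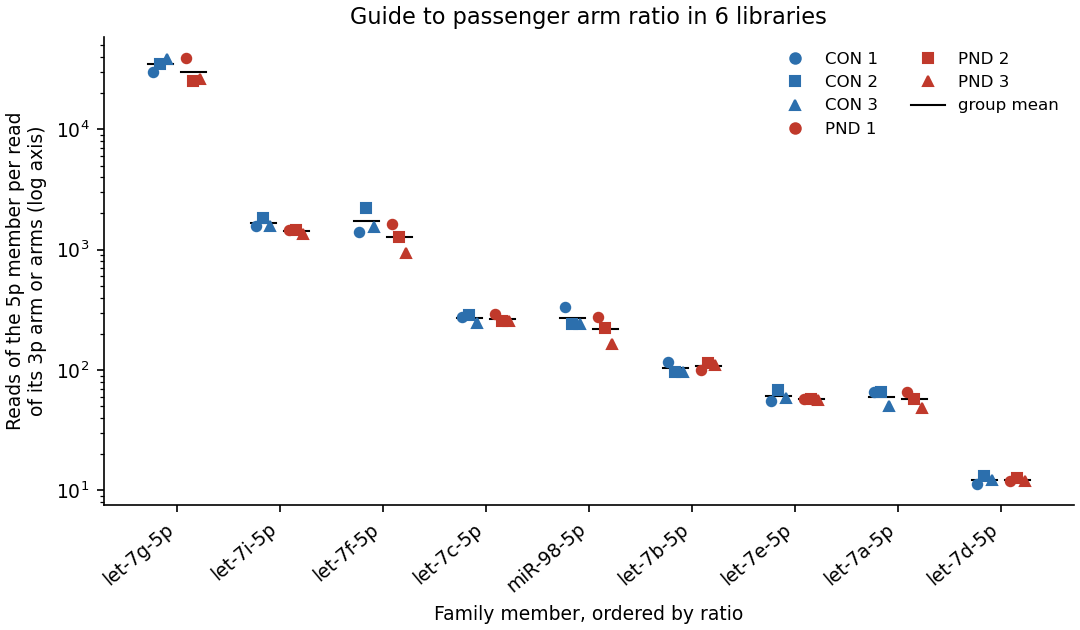
Points give the reads of each 5p member per read of its 3p arm or arms in each library on a log axis, with lines at the group means. let-7g is highest at 24984 to 39074 and let-7d lowest at 11.3 to 13.2. let-7i is the member whose PND points, 1356 to 1465, all lie under its CON points, 1577 to 1828. The let-7a and let-7c points are uncertain, since reads were divided between passenger arms of the same sequence.

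The miRNAs that share a primary transcript with a let-7 hairpin belong to other seed groups. miR-99a-5p, the neighbor of let-7c-1, had 51755, 49481 and 51958 CPM in the PND group and 50331, 52045 and 51270 CPM in the CON group, above let-7c-5p in every library. miR-100-5p, the neighbor of let-7a-2, lay between 8546 and 10157 CPM, below let-7a-5p. Near let-7e, miR-99b-5p lay between 3113 and 3978 CPM, close to let-7e-5p. miR-125b-5p has 1 hairpin farther along from let-7a-2 and 1 from let-7c-1, outside the short intervals given above. With these hairpins the spans are 50578 bases from miR-100 and 47408 bases from miR-99a. miR-125b-5p lay between 12448 and 16254 CPM.

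Of the 5 neighbors, 0 had an unadjusted p under 0.05 in limma, beside 5.13% of all entries. All 5 overlapped between the groups, where 7.91% of all entries lay higher in every PND library and 2.02% lay lower. miR-125a-5p, which is transcribed with let-7e, had 4203, 4173 and 3343 CPM in the PND group and 5215, 4531 and 3881 CPM in the CON group. Its log2 fold change was -0.21 ± 0.14 (SE), the largest in size of the 5 (limma, adjusted p = 0.77). Leaving out single mice gave from -0.32, without CON replicate 3, to -0.11, both without PND replicate 3 and without CON replicate 1. The unadjusted p was 0.048 in limma with DESeq2 size factors, 0.040 in edgeR and 0.029 in DESeq2, with adjusted p-values of 0.81, 0.82 and 0.98. let-7e-5p from the same cluster was at -0.0040, but the difference between these values was not tested.

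Among the 184 entries outside the family with a mean of at least 100 CPM, those with a profile most like the summed family over the 6 libraries were miR-30a-3p, miR-361-3p, miR-30e-3p, miR-25-3p and miR-423-5p. The likeness was the root mean square difference of the centered log2(CPM + 1) values, which was 0.02, 0.03, 0.04, 0.04 and 0.04, beside a median of 0.17 over the 184 entries. Since the family's own sum ranged only from 198481 to 216806 CPM, these were entries that hardly varied. miR-30a-3p, for example, lay between 1135 and 1220 CPM. The members themselves had differences of 0.03 to 0.12 from the sum that they form.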

How the data were processed

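Per the labels and the methods of the study, prefrontal cortex RNA of 3 mice per group was sequenced as small RNA. The authors filtered reads with fastx, aligned them with Bowtie (0.12.2 in the submitters' processing notes, which name the builds mm8 and mm9) and assigned them by miRBase positions. Their methods name TMM before the conversion to TPM, and 1 CPM value per miRNA was deposited. Each deposited CPM column sums to 1000000 within rounding, so the deposited scaling is by the plain total of reads and no TMM factor is left in it. The labels name another library kit than the study's methods. Divided by the value of a single read, 100% of the values of each library came out whole (tolerance 0.1 read). The reads so recovered gave the depth and were used in edgeR and DESeq2 as alternatives only. In these, edgeR gave 50 entries with an unadjusted p under 0.05 and 5 with an adjusted p under 0.05, and DESeq2 gave 28 and 5.

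PND was compared with CON in limma 3.58.1 under R 4.3.3 (lmFit, then eBayes with a trend), without covariates and over all 1189 entries as log2(CPM + 1), with Benjamini-Hochberg adjustment over all entries. The fit was tested on simulated data with changes far larger than those of the members, so that test does not bear on small differences. Fold changes on this scale understate changes of low entries. Sums, shares and ratios were compared by exact two-sided permutation tests over the 6 mice (scipy 1.17.1) and were not adjusted. Alternatives were a mean of 10 CPM or more, 0.1 as pseudocount, limma without trend, TMM factors and DESeq2 size factors (edgeR 4.0.16, DESeq2 1.42.0), miR-128-3p left out of the total, a replicate block, the count tests and each mouse left out. Passenger arms, neighbors and marker lists are fixed lists. Named besides the members are these lists, other let-7 entries or entries of the seed, miR-128-3p, and the 5 profiles nearest to the family sum. The members and lists were chosen with earlier results of these data known. Sequences and most positions are from RefSeq (GRCm38), with the rest from GENCODE M21, and all 9 members and 12 passenger arms matched by name. No library was a copy of another, since pairs within a group gave 143 to 1753 as chi-square over degrees of freedom for the members.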

Additional observations from a re-analysis of the deposited data

How the results depend on the processing

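Under the 15 alternatives run for the members, 0 of 9 had an unadjusted p under 0.05. Their directions depended on the scaling. For let-7b-5p, let-7c-5p, let-7f-5p, let-7g-5p and let-7i-5p, which were above 0 with the deposited scaling, the log2 fold changes were -0.10, -0.051, -0.11, -0.044 and -0.097 with TMM factors, -0.13, -0.081, -0.14, -0.073 and -0.13 with DESeq2 size factors, -0.064, -0.014, -0.074, -0.0067 and -0.060 with miR-128-3p left out of the total, -0.11, -0.058, -0.12, -0.052 and -0.099 in edgeR, and -0.14, -0.089, -0.15, -0.084 and -0.13 in DESeq2. The log2 ratio of the family sum, 0.03, was -0.095, -0.13 and -0.054 under the first 3 of these. Leaving out single mice gave -0.063 to 0.042 for let-7a-5p, -0.074 to 0.10 for let-7b-5p, -0.11 to 0.037 for let-7d-5p, -0.066 to 0.035 for let-7e-5p, -0.040 to 0.047 for let-7f-5p, -0.028 to 0.079 for let-7i-5p and -0.078 to 0.042 for miR-98-5p. let-7c-5p (0.0099 to 0.11), let-7g-5p (0.03 to 0.11) and the family sum (0.0072 to 0.06) stayed above 0. The cause was not tested.

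Of the passenger arms, 1 (let-7f-2-3p) had an unadjusted p under 0.05 with TMM factors, in edgeR and in DESeq2, and 0 to 2 when a mouse was left out, with let-7f-2-3p and let-7g-3p without PND replicate 1, where 7.40% of all entries did so. Of the neighbors, 1 (miR-125a-5p) did so with DESeq2 size factors, in edgeR and in DESeq2. These fits called 4.37%, 4.37%, 4.21% and 2.35% of all entries with TMM factors, DESeq2 size factors, edgeR and DESeq2. The number of members whose share separated the groups was 0 to 2 when a mouse was left out (let-7g-5p without PND replicate 1, let-7f-5p without CON replicate 1, let-7i-5p without CON replicate 2, let-7d-5p and let-7e-5p without CON replicate 3), and that of separated arm ratios was 1 to 4. In the same settings, the CPM of 14.7% to 26.0% of all entries and the arm ratio of 11.1% to 32.6% of the 144 hairpins separated the groups. A background for shares within a family was not computed.

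No pairing of the mice by replicate number was apparent. In the 361 entries averaging 10 CPM or more, the deviations of same-numbered libraries correlated at -0.13, 0.12 and 0.51. PND and CON libraries of different numbers correlated at -0.55 to 0.50. So few values cannot settle whether the numbers paired the mice. With the replicate block, 0 members, 1 passenger arm (let-7f-2-3p, unadjusted p = 0.035 and adjusted p = 0.75 in limma) and 0 neighbors had an unadjusted p under 0.05, beside 4.71% of all entries, and the mean paired log2 ratio of the family sum was 0.03 (exact sign-flip permutation test over 3 pairs, p = 0.75, smallest possible p 0.25). The shares of 2 of the 9 members, let-7d-5p (lower in PND) and let-7g-5p (higher), differed the same way for all 3 numbers. For both, the exact sign-flip permutation test over 3 pairs gave p = 0.25, the smallest possible. Without any difference, agreement of all 3 signs has that same probability for each member. The count therefore does not show a change in these shares. With 3 mice per group, the number of mice and not the read depth limits the comparisons of the members. Passenger arms with few reads, such as let-7g-3p with 24 to 43, also carry counting error.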

Other observations

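let-7f-5p, let-7g-5p and let-7i-5p together held 72.5%, 73.8% and 74.5% of the family's reads in PND replicates 1, 2 and 3 and 71.9%, 72.5% and 75.6% in CON replicates 1, 2 and 3. These 3 members are the ones that differ from let-7a-5p at base 12 (G12A in let-7f-5p, G12U in let-7g-5p and let-7i-5p). The other 6 members held between 24.4%, in CON replicate 3, and 28.1%, in CON replicate 1, so that the widest contrast lay between mice of the CON group. The grouping was chosen after the values were seen, and it was not tested.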
